A study of Mus musculus with 48 samples.

Results

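Cx3cr1, Gpr183, Ccr1, Ccr2 and Cxcr4 are genes of chemoattractant receptors, the cell surface receptors by which macrophages sense gradients of chemokines and oxysterols. They were taken by gene symbol from a count table of RAW264.7 cells, a mouse macrophage cell line, and are 5 of the 49568 genes in that table. The genes were chosen by their known response to IFN-γ in the level measured here. The contrasts of cells with and without IFN-γ, and the differences between those contrasts, are therefore given for them as descriptions, with no test. The contrasts between peptides, which ask whether a peptide changed the receptors, were tested. They share libraries with the contrasts that chose the genes, so their p-values for these genes are not independent of that choice.

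The cells were grown for 72 hours, with the medium refreshed at 48 hours, in 8 groups. The groups received PBS, the peptide LE, SE or PE at 100 µg/ml, IFN-γ (labelled IFNy) at 5 ng/ml, or a peptide together with IFN-γ (LE+IFNy, SE+IFNy and PE+IFNy). Each peptide is a synthetic 15-mer, labelled 65-79*0301 for LE, 65-79*0401 for SE and 65-79*0402 for PE, that copies a stretch of the HLA-DR beta chain. LE comes from an allele linked to lupus risk, SE from an allele linked to rheumatoid arthritis risk and PE from an allele linked to protection. All groups are the same cell line, which cannot show differences between animals, and IFN-γ and the peptides were compared with the group that lacked only that agent.

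Each group had 3 libraries named by a single letter (24 in all) and 3 more named HLA. The letter-named libraries held 16.5 to 26.9 M counts (median 22.9 M) and are used below unless stated. In them the mean log2 level of 20 IFN-γ target genes lay between 6.78 and 7.11 in every library labelled with IFN-γ and between 2.65 and 2.77 in every other library. In the HLA-named libraries this level went against the label in 12 of 24 libraries, so they enter none of the comparisons below and their values are given by label near the end. An alternative fit that includes them is given with the limits. Macrophage markers as a sum fitted the label of the line, at 6885 to 12298 CPM (counts per M counts of the library) over 9 genes. Lyz2 alone had 2961 to 7027 CPM, and Mertk had at most 0.408. The summed T cell, B cell and epithelium markers reached at most 0.0819, 0.271 and 0.242 CPM. Of the B cell markers 2 of 3 were at 0 in all 24 libraries. The summed neutrophil, fibroblast and endothelium markers reached at most 1.49, 1.84 and 2.39 CPM. Osteoclast markers are given below. The study describes 6 biological replicates from 2 independent experiments for its RAW264.7 data. The labels do not say which libraries shared a culture or an experiment. The 3 letter-named libraries of a group may therefore come from a single experiment, and p-values measure the spread between these libraries only.

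Chemoattractant receptors sit in the plasma membrane, span it repeatedly and signal mostly through inhibitory G proteins to the enzymes that steer a moving cell. CX3CR1 binds fractalkine (CX3CL1) and marks patrolling monocytes and many tissue macrophages. CCR2 binds CCL2 and its relatives and draws monocytes out of bone marrow, CCR1 binds CCL3, CCL5 and their relatives, CXCR4 binds CXCL12 and holds cells in bone marrow, and GPR183 (EBI2) binds oxysterols made by CH25H and CYP7B1. IFN-γ is the classical macrophage-activating cytokine.

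In GRCm38 (GENCODE M21 gene models) 3 of the 5 genes lie on chromosome 9. Cx3cr1 (ENSMUSG00000052336.7) covers 119901616 to 120069879 on the minus strand, Ccr1 (ENSMUSG00000025804.5) covers 123962124 to 123968692 on the minus strand, and Ccr2 (ENSMUSG00000049103.14) covers 124101950 to 124113557 on the plus strand. Gpr183 (ENSMUSG00000051212.8) lies on chromosome 14 from 121952551 to 121965195 on the minus strand, inside Ubac2 of the opposite strand, with no shared exon bases. Cxcr4 (ENSMUSG00000045382.6) lies on chromosome 1 from 128588199 to 128592293 on the minus strand. The Cx3cr1 model shares 78 exon bases with genes of the opposite strand, and whether the counting used strand is not given in the sources used here.

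The 250 bases upstream of the RefSeq start were read for the 5 genes from RefSeq's promoter table (GRCm38.p6), and 5 of 5 matched. These starts can differ from those of the GENCODE models above. The Cx3cr1 window lies inside its GENCODE model, and the Ccr2 window (124101933 to 124102182) lies mostly inside its own. The bases before the GENCODE start of Cx3cr1 were not searched. Those of Cx3cr1 and Cxcr4 are shown because their log2 fold changes had opposite signs when IFN-γ was added to LE or SE. Capitals mark the TATA box (TATAAA) and GC box (GGGCGG), searched on both strands, and the 3 GC boxes lie on the opposite strand.
Cx3cr1, chr9:120068297-120068546, minus strand: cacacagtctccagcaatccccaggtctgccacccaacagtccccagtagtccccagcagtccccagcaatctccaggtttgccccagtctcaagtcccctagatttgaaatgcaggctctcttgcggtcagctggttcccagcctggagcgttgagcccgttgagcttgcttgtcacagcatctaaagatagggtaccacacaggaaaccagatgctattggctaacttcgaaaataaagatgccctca
Cxcr4, chr1:128592300-128592549, minus strand: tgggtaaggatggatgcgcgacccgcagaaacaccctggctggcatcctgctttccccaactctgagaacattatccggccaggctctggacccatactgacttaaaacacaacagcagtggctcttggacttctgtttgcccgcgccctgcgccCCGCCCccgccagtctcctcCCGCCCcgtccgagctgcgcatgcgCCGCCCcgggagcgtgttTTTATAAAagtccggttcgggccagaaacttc
The Cxcr4 sequence held 3 GC boxes, the nearest 45 to 50 bases before the start, and TATA boxes on both strands that overlap between 25 and 32 bases before the start. The Cx3cr1 sequence held none of the 5 motifs searched. A TATA box occurred in 12.4% and a GC box in 32.7% of 32851 promoters of the same length. The IFN-γ activated site GAS (TTCNNNGAA, in 7.02% of promoters) and the interferon response core ISRE (in 2.98%) were in none of the 5 windows, and the PU.1 core (GAGGAA, in 23.3%) was in that of Ccr1, 124 to 129 bases before the start.

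Levels are given in CPM of the library total, in the order of replicates 1, 2 and 3. Levels of different genes are compared per kilobase of exon. In PBS, Gpr183 had the highest level of the 5 at 14.2 ± 0.00655 CPM per kb (SD, n = 3), followed by Cx3cr1 at 7.86 ± 2.80, Cxcr4 at 5.96 ± 0.672, Ccr1 at 2.64 ± 0.464 and Ccr2 at 0.442 ± 0.0692. With LE and IFN-γ the order was different. Cxcr4 was then highest at 28.3 ± 3.37 CPM per kb, ahead of Ccr1 at 3.73 ± 0.316 and Gpr183 at 3.07 ± 0.157, and Cx3cr1 was lowest at 0.251 ± 0.0519.

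**Figure D1:**
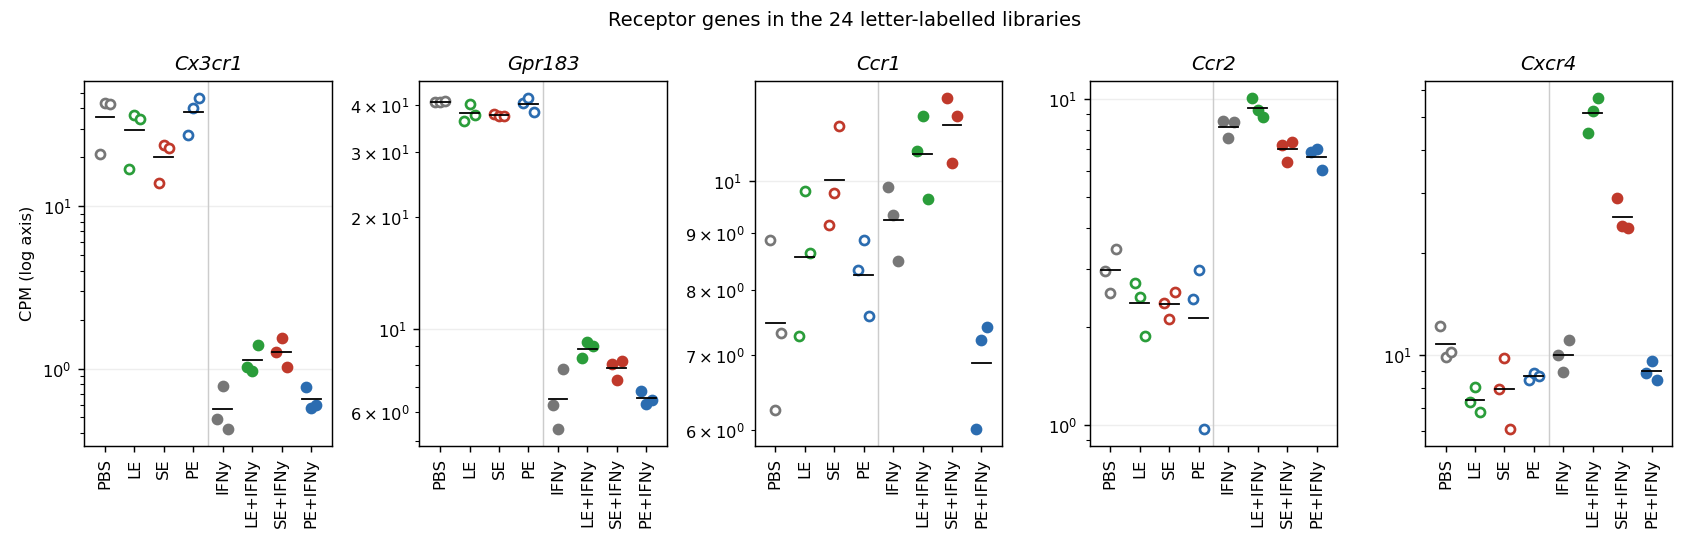
Level of the 5 receptor genes in each of the 24 letter-named libraries, in CPM on a log axis, by group. Open circles are libraries without IFN-γ, filled circles libraries with it, and bars are group means. Cx3cr1 and Gpr183 are lower in every library with IFN-γ, Ccr2 is higher, and Cxcr4 is high in LE+IFNy (44.8 to 56.9 CPM) and SE+IFNy (23.6 to 29.0 CPM).

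Cx3cr1, the fractalkine receptor gene, was low in every library that had IFN-γ. Without it the level was 20.8, 42.9 and 42.4 CPM in PBS, 17.0, 36.5 and 34.4 in LE, 13.9, 23.9 and 22.7 in SE and 27.5, 40.1 and 46.5 in PE. Replicate 1 was the lowest of its group in these 4 groups. With IFN-γ the level was 0.492, 0.777 and 0.425 CPM, which is 9 to 19 counts, 1.03, 0.965 and 1.40 with LE, 1.27, 1.53 and 1.02 with SE and 0.768, 0.574 and 0.600 with PE. No library with IFN-γ reached the level of any library without it. The log2 fold change was -5.93 for IFN-γ against PBS, -4.73 with LE, -4.02 with SE and -5.92 with PE on board.

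Among the libraries with IFN-γ, Cx3cr1 was higher in the LE and SE groups. The 3 LE+IFNy and the 3 SE+IFNy libraries all lay above the 3 libraries with IFN-γ alone. The log2 fold change was 0.99 for LE (SE 0.306, adjusted p = 0.0119 by edgeR's quasi-likelihood test with Benjamini-Hochberg adjustment, as for every adjusted p below) and 1.18 for SE (SE 0.303, edgeR adjusted p = 0.00582), from a level near 0.564 CPM. With PE it was 0.21 (95% interval -0.50 to 0.92, edgeR adjusted p = 0.736). LE and SE were not distinguishable, at -0.19 with a 95% interval from -0.75 to 0.38. These are counts of 9 to 35 per library, and the LE call was lost without replicate 1 (edgeR adjusted p = 0.0814), without replicate 3 (0.178) and when all 8 groups were fitted together (0.200), the SE call without replicate 1 (0.0884) and in the 8-group fit (0.157). Against PE+IFNy, Cx3cr1 was higher with LE by 0.78 (edgeR adjusted p = 0.0320) and with SE by 0.97 (edgeR adjusted p = 0.0170). Both calls were lost without any 1 of the 3 replicates, with edgeR adjusted p from 0.0540 to 0.238, and in the fit of all 8 groups (0.275 and 0.229). The LE call was also lost with DESeq2 (DESeq2 adjusted p = 0.0617) and with no filter on low counts (edgeR adjusted p = 0.0589).

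Gpr183, which guides cells along oxysterol gradients, was lower in the same libraries but kept more of its level. The values were 40.9, 40.9 and 40.9 CPM in PBS, 36.3, 40.3 and 37.6 in LE, 38.0, 37.3 and 37.5 in SE and 40.5, 41.9 and 38.3 in PE. With IFN-γ they were 6.27, 5.40 and 7.83 CPM alone, 8.37, 9.25 and 9.0 with LE, 8.07, 7.31 and 8.23 with SE and 6.82, 6.32 and 6.47 with PE. The libraries with and without IFN-γ did not overlap. The log2 fold change was -2.64 against PBS, -2.13 with LE, -2.30 with SE and -2.67 with PE. With IFN-γ on board the LE libraries had more Gpr183 than IFN-γ alone, with a log2 difference of 0.47 (edgeR adjusted p = 0.00528, SE 0.128), which is under the fold of 1.5 that a call needs. The corresponding value was 0.31 for SE (edgeR adjusted p = 0.0761) and 0.04 for PE (edgeR adjusted p = 0.881).

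Genes that mark osteoclasts, the bone-resorbing relatives of macrophages that RAW264.7 cells can form, were also lower in sum with IFN-γ. Of 7 osteoclast markers 6 were tested, and with IFN-γ against PBS 4 fell and 1 rose, where 18.1% of all genes were called. Their summed level was 343 to 436 CPM in the 4 groups without IFN-γ, 109 to 120 with IFN-γ alone, 179 to 196 with LE+IFNy, 158 to 175 with SE+IFNy and 109 to 123 with PE+IFNy, and none of them was at 0 in all 24 libraries. Single markers ranged from Calcr, at most 0.0371 CPM, to Atp6v0d2 at 56.2 to 222 CPM. Against IFN-γ alone 2 of the tested markers rose with LE (15.5% of all genes called) and 2 with SE (7.39%). Their part in the change of Cx3cr1 and Gpr183 was not tested. In bulk RNA, fewer cells of a type and less RNA per cell cannot be told apart.

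Ccr2, the receptor gene for CCL2, went the other way with IFN-γ. The level was 2.96, 2.54 and 3.47 CPM in PBS, 2.72, 2.47 and 1.88 in LE, 2.37, 2.11 and 2.56 in SE and 2.43, 2.98 and 0.970 in PE. With IFN-γ it was 8.57, 7.57 and 8.49 CPM alone, 10.1, 9.25 and 8.82 with LE, 7.21, 6.39 and 7.37 with SE and 6.87, 7.02 and 6.04 with PE. All 12 libraries with IFN-γ exceeded the 12 without it. The log2 fold change was 1.47 against PBS, 1.96 with LE, 1.53 with SE and 1.55 with PE. Against IFN-γ alone LE lay at 0.21 (95% interval -0.02 to 0.43, edgeR adjusted p = 0.113) and SE at -0.20 (95% interval -0.43 to 0.03, edgeR adjusted p = 0.174). PE lay at -0.28 (95% interval -0.51 to -0.04, edgeR adjusted p = 0.111), and its 3 libraries were all below those with IFN-γ alone. LE+IFNy exceeded SE+IFNy by 0.41 (edgeR adjusted p = 0.00717) and PE+IFNy by 0.49 (edgeR adjusted p = 0.000911), both under the fold of 1.5.

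Ccr1, the receptor gene for CCL3 and CCL5, varied least of the 5, with an SD of 0.28 in log2 CPM over the 24 libraries, where Cx3cr1 had 2.60. The level was 8.87, 6.25 and 7.32 CPM in PBS, 7.28, 9.80 and 8.63 in LE, 9.14, 9.77 and 11.2 in SE and 8.33, 8.86 and 7.58 in PE. With IFN-γ it was 9.88, 9.33 and 8.49 CPM alone, 10.7, 11.4 and 9.65 with LE, 11.9, 10.4 and 11.4 with SE and 6.01, 7.22 and 7.41 with PE. The groups with and without IFN-γ overlapped for every peptide except PE. The log2 fold change with IFN-γ ran from -0.31 with PE to 0.32 against PBS. Against IFN-γ alone SE lay at 0.31 (edgeR adjusted p = 0.0341) and PE at -0.40 (edgeR adjusted p = 0.0352), both under the fold of 1.5 and with libraries that did not overlap those of IFN-γ alone, and LE at 0.21 (edgeR adjusted p = 0.112). Between peptides with IFN-γ the PE group was the lowest. LE+IFNy exceeded it by 0.61 (SE 0.111, edgeR adjusted p = 0.000141) and SE+IFNy by 0.70 (SE 0.111, edgeR adjusted p = 9.70e-05), both calls. The LE difference fell under 1.5-fold without replicate 1 (0.52) or replicate 2 (0.58), and the SE difference without replicate 1 (0.57). LE and SE differed by -0.10 (95% interval -0.32 to 0.12).

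Cxcr4, the CXCL12 receptor gene, had the largest log2 differences between peptide groups of the 5. In PBS it was 12.2, 9.92 and 10.2 CPM, in LE 7.32, 8.07 and 6.81, in SE 8.0, 9.83 and 6.09 and in PE 8.47, 8.91 and 8.73. IFN-γ alone gave 10.0, 8.96 and 11.1 CPM, within reach of PBS, and PE+IFNy gave 8.86, 9.64 and 8.48. LE+IFNy gave 44.8, 51.9 and 56.9 CPM and SE+IFNy 29.0, 23.9 and 23.6. No library outside these 2 groups exceeded 12.2 CPM, and the 2 groups did not overlap each other. For the IFN-γ contrast the log2 fold change was -0.09 against PBS, 2.77 with LE, 1.65 with SE and -0.00 with PE.

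In LE+IFNy against IFN-γ alone Cxcr4 rose 5.17-fold (log2 fold change 2.37, SE 0.111, edgeR adjusted p = 4.92e-11), and in SE+IFNy it rose 2.59-fold (log2 fold change 1.38, SE 0.114, edgeR adjusted p = 6.40e-08). LE+IFNy exceeded SE+IFNy by 0.99 (SE 0.101, edgeR adjusted p = 5.99e-06), and PE+IFNy by 2.50 (edgeR adjusted p = 4.41e-11). SE+IFNy exceeded PE+IFNy by 1.5 (edgeR adjusted p = 3.32e-08). PE+IFNy differed from IFN-γ alone by -0.13 (95% interval -0.39 to 0.14). Cxcr4 responded to IFN-γ by over 1.5-fold only with LE or SE present. The libraries behind these p-values therefore also entered the choice of the gene.

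**Figure D2:**
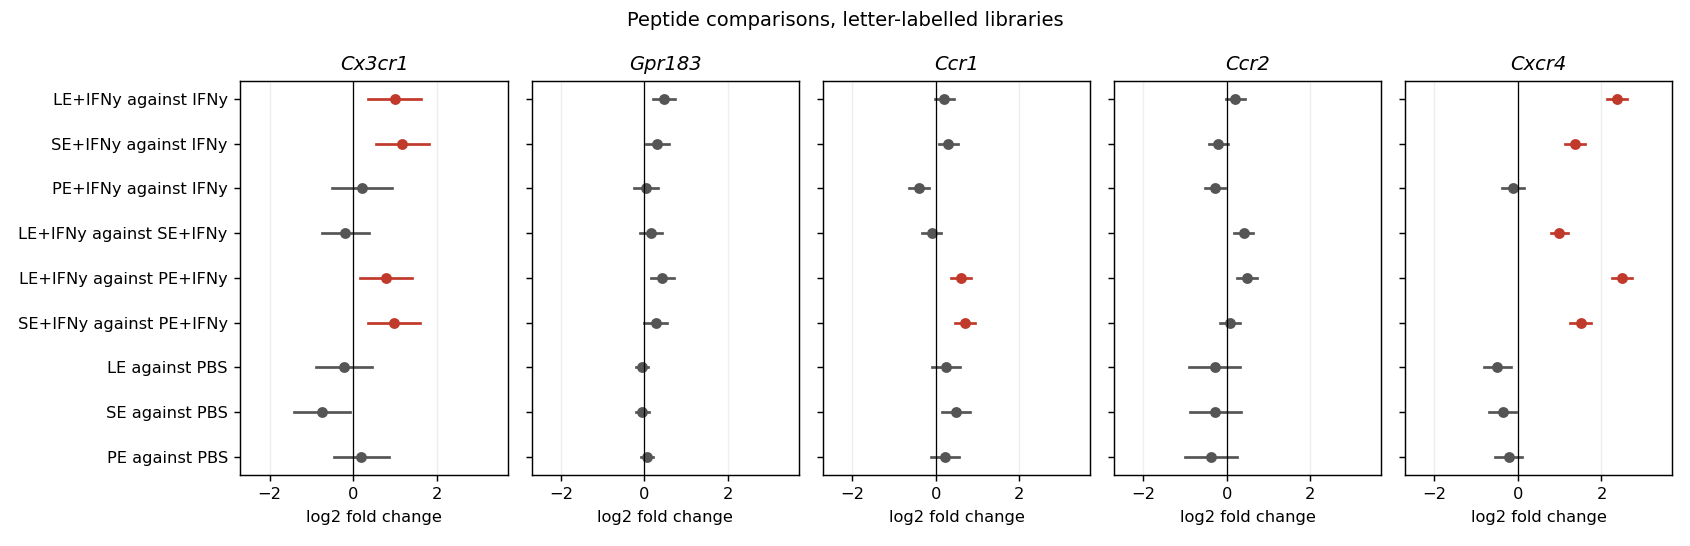
Log2 fold change (horizontal axis) of each gene in the 9 tested comparisons, letter-named libraries. Points are edgeR estimates, bars 95% intervals, and red marks a call (adjusted p under 0.05 and over 1.5-fold). Cxcr4 lies furthest right in LE+IFNy against IFNy (2.37) and against PE+IFNy (2.50), and Gpr183 and Ccr2 have no red point.

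Ordered by mean level, neighbouring groups often overlapped. For Cx3cr1 the order was PE, PBS, LE and SE, each overlapping the next, then a gap, SE+IFNy and LE+IFNy overlapping, a gap, and PE+IFNy and IFNy overlapping. For Gpr183 the order was PBS, PE, LE and SE, each overlapping the next, then LE+IFNy, which overlapped no other group, SE+IFNy, which overlapped IFNy but not PE+IFNy, and PE+IFNy and IFNy, which overlapped. For Ccr2 it was LE+IFNy, IFNy, then the overlapping SE+IFNy and PE+IFNy, then PBS, LE, SE and PE overlapping. For Ccr1 each group overlapped the next, from SE+IFNy at the top to PE+IFNy at the bottom. For Cxcr4 LE+IFNy and SE+IFNy stood apart and the other 6 groups overlapped their neighbours.

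Counted over the 5 members, LE+IFNy against IFN-γ alone called 2 of 5 (Cx3cr1 and Cxcr4, both higher), where 15.5% of all 12720 genes tested were called. SE+IFNy called 2 of 5, with 7.39% of all genes called. PE+IFNy called 0 of 5 by edgeR, with 2 at an unadjusted p under 0.05, and 0 by DESeq2, and 0.629% of all genes were called. LE+IFNy against SE+IFNy called 1 of 5 (4.93% of all genes), LE+IFNy against PE+IFNy 3 of 5 (21.6%) and SE+IFNy against PE+IFNy 3 of 5 (7.59%). Cxcr4 was among the calls in each of these comparisons that had any. Its LE+IFNy and SE+IFNy libraries also entered its choice, so nothing is read from these peptide counts. In the IFN-γ contrasts 18.1% of all genes were called for IFN-γ against PBS, 35.1% with LE, 26.3% with SE and 21% with PE. The members past 1.5-fold, with no test, numbered 3, 4, 4 and 3 of 5 in the same order, and nothing is read from this since these contrasts chose them. These contrasts share groups, so their values are given side by side and are not independent.

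Without IFN-γ the peptides gave no calls among the 5 genes. edgeR and DESeq2 called 0 members for LE (0.0242% of all 12420 genes called), SE (1.92%) and PE (3.13%), and at an unadjusted p under 0.05 there were 1, 3 and 0 members. Cx3cr1 in SE lay at -0.75 (SE 0.319, edgeR adjusted p = 0.122), Cxcr4 in LE at -0.49 (edgeR adjusted p = 0.223) and Ccr1 in SE at 0.50 (edgeR adjusted p = 0.0459), under the fold needed. For Cx3cr1 the replicate number as a block gave -0.71 (edgeR adjusted p = 0.000976), a call, and fitting all 8 groups gave -0.74 (0.0418).

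The IFN-γ response with a peptide minus that without one was fitted over the 8 groups and is given for the members with no test, since it is built from the contrasts that chose them. For Cxcr4 the log2 response was larger by 2.85 with LE (SE 0.186) and by 1.74 with SE (SE 0.186), and with PE the difference was 0.08. For Cx3cr1, whose response was a fall, the difference was 1.20 with LE (SE 0.656), 1.91 with SE (SE 0.645) and -0.00 with PE (SE 1.12), on 9 to 35 counts per library with IFN-γ. Gpr183 lay at 0.52 with LE, 0.35 with SE and -0.04 with PE, Ccr2 at 0.49, 0.06 and 0.07, and Ccr1 at -0.04, -0.19 and -0.64. Past 1.5-fold were 2 of 5 members with LE, 2 with SE and 1 with PE, where 18.9%, 7.96% and 0% of all 13096 genes were called, and nothing is read from these counts.

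The other chemoattractant receptors were a list of 34 genes, of which 11 passed the filter on low counts for IFN-γ against PBS and 23 did not. This list and the ligand and signalling lists below were chosen with earlier results of these data known. Their counts and medians are therefore descriptions. With IFN-γ against PBS 6 rose and 2 fell (18.1% of all genes were called), and the median log2 fold change of the 11 was 0.85 against -0.01 over all genes. The rises were Fpr2 (4.74), which binds formylated peptides, Ltb4r1 (1.5), Ccrl2 (1.33), Cxcr5 (1.17), C3ar1 (0.96), the C3a receptor, and Ptafr (0.85). In PBS Fpr2 had 1 to 5 counts and Ltb4r1 2 to 8. Both passed the filter only through the IFN-γ group, so their direction was fixed in advance. Ltb4r1 had 10 to 21 counts with IFN-γ (edgeR adjusted p = 0.0475). The falls were S1pr1 (-1.54), the sphingosine phosphate receptor that leads lymphocytes out of tissue, and Cxcr3 (-1.32). Cxcr3 spread widely, at 15 to 73 counts with IFN-γ alone and 73 to 94 in PBS (edgeR adjusted p = 0.0276). edgeR called 8 of these receptors and DESeq2 7.

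With LE+IFNy against IFN-γ alone 3 of 14 tested receptors rose and 1 fell, where 15.5% of all genes were called, with a median of 0.04 against -0.01 over all genes. Ccrl2, a chemerin-binding receptor, rose by 2.14 (19.2 to 83.5 CPM), Fpr2 by 1.22, and Cxcr1, which had 0 counts with IFN-γ alone, was at least 4.21-fold higher at 9 to 20 counts. Cxcr1 passed the filter only through groups with a peptide, so its direction was fixed in advance. S1pr1 fell by 0.68. With SE+IFNy edgeR called 4 of 14, all higher (7.39% of all genes called), among them Ccrl2 at 1.88 and Fpr2 at 0.78. DESeq2 called 3. Cxcr1 had 7 to 12 counts with SE+IFNy, so here too its direction was fixed in advance, and nothing is read from the count. With PE+IFNy edgeR and DESeq2 called 0 of 14, with 5 at an unadjusted p under 0.05, and 0.629% of all genes were called.

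**Figure D3:**
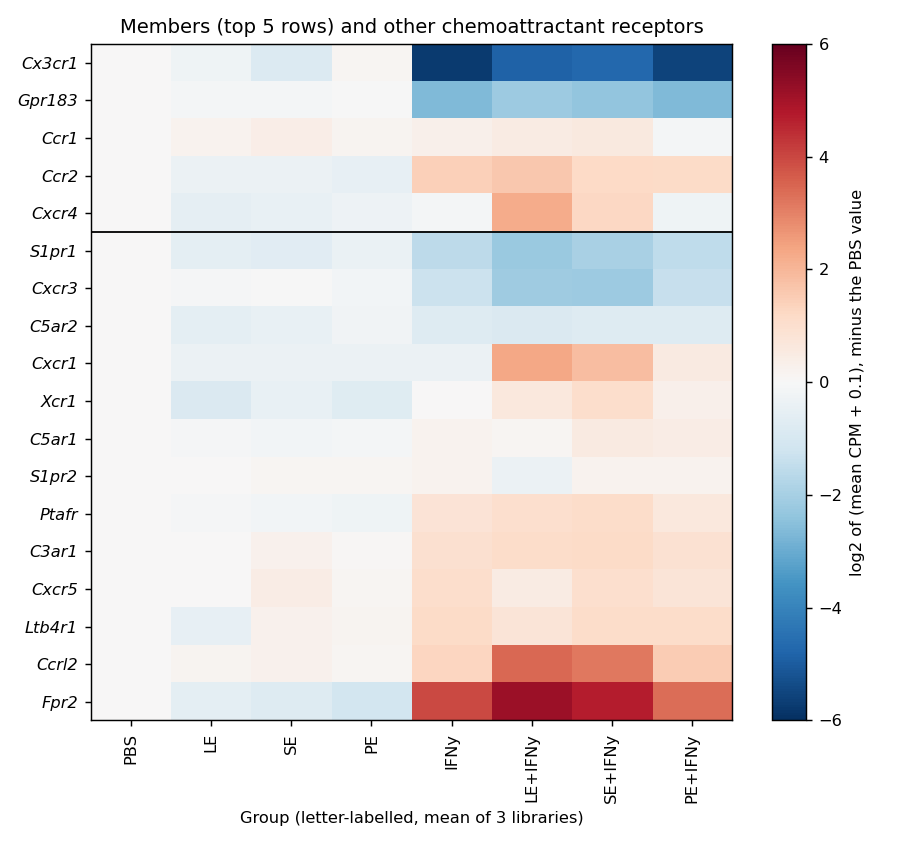
Group means of the 5 members (top rows) and of other chemoattractant receptors, as log2 of mean CPM plus 0.1 minus the PBS value, in the 8 letter-named groups. Blue is lower and red higher than PBS. Cx3cr1 is blue in the 4 groups with IFN-γ. Cxcr1, Cxcr4, Ccrl2 and Fpr2 are each redder in LE+IFNy and SE+IFNy than in the other groups of their own row.

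The ligands of the 5 receptors and the enzymes that make oxysterols were a list of 14 genes. With IFN-γ against PBS 7 of 10 tested rose and 2 fell, where 18.1% of all genes were called, and the median was 2.10, or 1.94 with genes at 0 set at their bound. Ccl2, the CCR2 ligand, rose by 1.77 and Ccl7 by 4.23. Ccl12, at 0 counts in PBS, was at least 25.9-fold higher and Ccl8, also at 0, at least 4.32-fold higher. Ccl12 and Ccl8 passed the filter only through the IFN-γ group, so their rise was fixed in advance. Ccl5 and Ccl3, among the ligands of CCR1, rose by 2.43 and 0.64, and Ccl6 by 2.75. Mif fell by 0.78 and Ccl9 by 0.76. LE+IFNy raised 7 of 10 above IFN-γ alone (median 0.88, 15.5% of all genes called), led by Ccl5 (1.97) and Ccl3 (1.76), and SE+IFNy raised 7 (median 0.92, 7.39% of all genes called), led by Ccl5 (3.34). PE+IFNy raised 1, Ccl5 (0.88), where 0.629% of all genes were called. Cx3cl1, a ligand of Cx3cr1, and Cxcl12, a ligand of Cxcr4, had at most 2 counts in any library, and Ch25h and Cyp7b1 had 0 counts in all 24. Low Cxcl12 does not cover the other listed ligands. Mif, for example, had group means from 390 CPM with IFN-γ alone to 828 in PE.

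The genes downstream of the receptors, G proteins, arrestins, receptor kinases, RGS proteins and phosphoinositide 3-kinase subunits, were a list of 28 genes, of which 26 were in the table and 25 tested. With IFN-γ against PBS 3 rose and 5 fell (median -0.09), where 18.1% of all genes were called. Rgs1, which shortens G protein signalling, rose by 1.75 from 56.5 to 188 CPM, Grk5 by 1.13 and Rgs3 by 0.86. Rgs18, Rgs10, Prex1, Pik3cg and Pik3r5 fell by 0.59 to 1.06. LE+IFNy against IFN-γ alone raised Rgs1 (1.64), Rgs16 (1.44) and Rgs2 (1.12) and lowered Rgs18 and Rgs14, where 15.5% of all genes were called. SE+IFNy raised 4 and lowered 2 (7.39% of all genes called), with Rgs1 at 1.27. With PE+IFNy edgeR called 0 of 25, DESeq2 0, and 11 had an unadjusted p under 0.05, with 0.629% of all genes called.

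The genes most like each member over the 24 libraries were found by the root mean square difference of log2 CPM, each centred on its own mean, among 11491 genes. The values describe likeness and carry no test. Nearest to Cx3cr1 were Cbr2 (0.81), Sema4g (0.92) and Serpinf1 (0.94), all under 1 CPM in the groups with IFN-γ, where the median gene lay at 2.56. Nearest to Gpr183 were Acp5 (0.22), an osteoclast marker that had 77.7 CPM in PBS and 16.0 with IFN-γ, Arsb (0.26) and Tmem176b (0.29). Nearest to Ccr2 were Cth (0.21), Ifi211 (0.22) and Ifi202b (0.23). Nearest to Ccr1 were Ctsl, Fcrl1 and Mocos, each at 0.19, where Ccr1 itself had an SD of 0.28 and the median gene lay at 0.38. Nearest to Cxcr4 were the immediate-early factor Egr1 (0.28), Gpcpd1 (0.29) and Ulbp1 (0.30). Egr1 had 8.06 CPM with IFN-γ alone, 42.6 with LE+IFNy, 22.0 with SE+IFNy and 8.76 with PE+IFNy.

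The HLA-named libraries are given by label, with no test, since the labels LE, PE, IFNy and SE+IFNy disagreed with the IFN-γ target genes in all 3 libraries each. Gbp2, an IFN-γ target, had 529 to 562 CPM in the libraries labelled LE and 364 to 461 in those labelled PE, against 0.465 to 0.972 in those labelled IFNy. Cx3cr1 averaged 6.57 CPM in the libraries labelled PBS, 2.32 in LE, 6.94 in SE, 2.49 in PE, 8.73 in IFNy, 0.347 in LE+IFNy, 9.26 in SE+IFNy and 0.312 in PE+IFNy. The PBS mean covers 7.49 and 11.4 CPM in HLA1 and HLA9 and 0.861 in HLA17. HLA17 was also below HLA1 and HLA9 in Gpr183 (12.7 against 30.8 and 29.4 CPM) and Cxcr4 (3.60 against 7.42 and 7.53). Cxcr4 averaged 42.2 CPM in the libraries labelled LE and 27.8 in those labelled PE, and 6.18 to 15.5 in the other labels. Ccr2 averaged 16.5 to 21.7 CPM in the libraries labelled LE, PE, LE+IFNy and PE+IFNy and 5.14 to 6.69 in the rest. The former labels had mean log2 levels of the IFN-γ target genes of 6.71 to 7.23, and the rest 2.49 to 2.79. Gpr183 averaged 7.34 and 7.43 CPM in the libraries labelled LE+IFNy and PE+IFNy and 14.6 to 36.6 in the others. Ccr1 averaged 25.6 and 26.4 CPM in the libraries labelled LE and PE and 7.01 to 16.2 elsewhere.

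**Figure D4:**
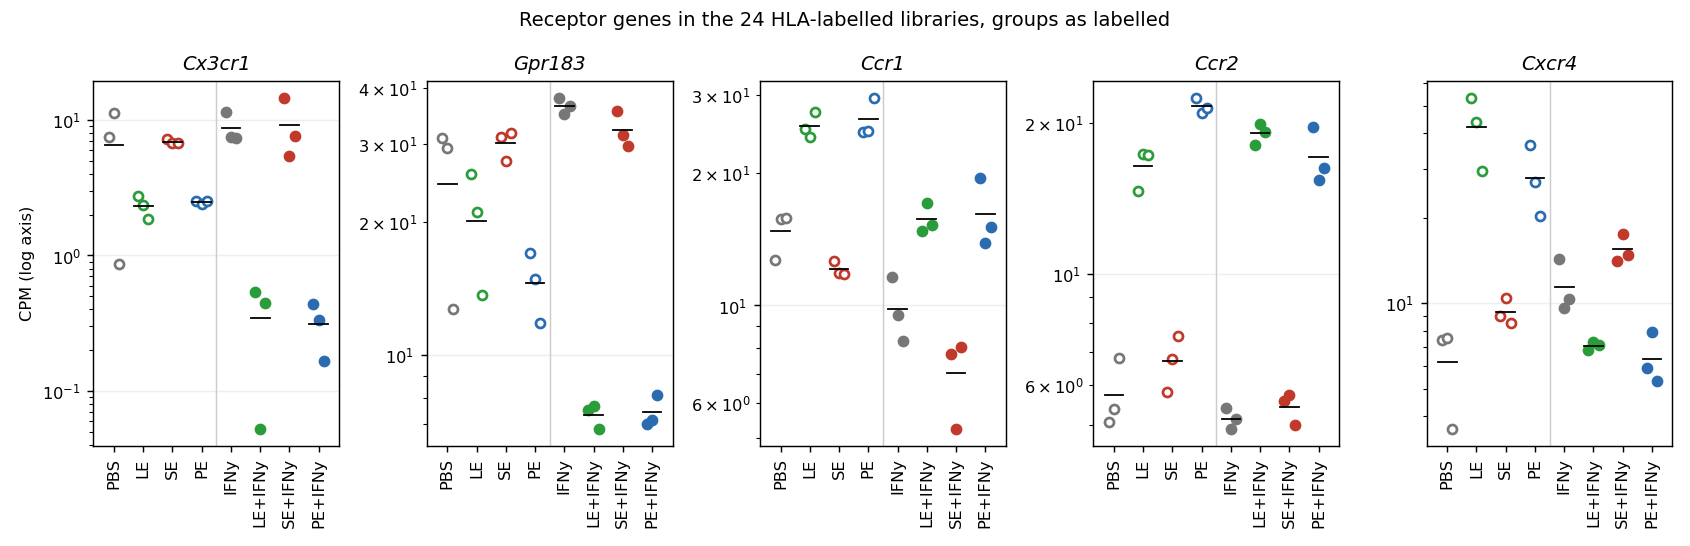
Level of the 5 receptor genes in the 24 HLA-named libraries, in CPM on a log axis, placed by their labels. Points are libraries and bars group means, and 12 libraries go against their label in the IFN-γ target genes. Cxcr4 is highest in the libraries labelled LE (42.2 CPM on average).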

How the data were processed

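Total RNA of RAW264.7 cells was made into libraries by the authors with an Illumina TruSeq kit (stranded mRNA in the study's methods, with no strand named in the labels) and sequenced. Per the submitters' notes and the study's methods, reads that aligned uniquely to GRCm38.p5 were summed per gene with featureCounts, and the authors tested them with DESeq2 1.16.1 in R 3.4.1. The aligner is not given in the sources used here. The values used here are the deposited raw counts of 49568 genes in 48 libraries, with no normalization. Levels are CPM of each library's total. Counts were fitted with edgeR 4.0.16 in R 4.3.3 (TMM scaling, filterByExpr, quasi-likelihood F test), with Benjamini-Hochberg adjustment over all genes tested, and a gene was called at an adjusted p under 0.05 and a fold change over 1.5. IFN-γ against PBS used those 2 groups, peptide with IFN-γ against peptide used the 6 peptide groups, comparisons among IFN-γ groups used those 4, peptides alone used the 4 groups without IFN-γ and differences between IFN-γ responses used all 8. The last were planned as tests and are given for the members without one, because the IFN-γ contrasts chose them. DESeq2 1.42.0, no filter, a replicate block, leaving out each replicate, 1 fit of 8 groups and both library series were alternatives. Fits were tested on simulated data. No 2 libraries agreed within sampling noise (lowest chi-square per degree of freedom 3.89 over 276 pairs). The genes named are the 5 members, list genes called in IFN-γ against PBS or in LE+IFNy against IFN-γ alone, and for each member the 3 most like genes. Cx3cl1, Cxcl12, Ch25h, Cyp7b1 and the cell type markers Lyz2, Mertk, Calcr and Atp6v0d2 were named after their values were seen. Members and lists (receptors, ligands, signalling, cell type markers) were chosen with earlier results of these data known. An item of the receptor list is not reported here by name.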

Additional observations from a re-analysis of the deposited data

Results flagged for a closer look

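In the HLA-named libraries, which enter none of the comparisons in the report and only an alternative fit, Ccr2 averaged 16.5 CPM in those labelled LE, 21.7 in PE, 19.1 in LE+IFNy and 17.1 in PE+IFNy, and Cxcr4 averaged 42.2 CPM in those labelled LE and 27.8 in PE. In each of these labels all 3 libraries exceeded the highest HLA-named library labelled PBS by over 2-fold. The labels LE and PE are among those whose IFN-γ target genes went against the label. The labels with these Ccr2 values had mean log2 levels of the IFN-γ target genes of 6.71 to 7.23. The other HLA-named labels had 2.49 to 2.79. High Ccr2 thus lay in the HLA-named libraries with high IFN-γ target genes, whatever their label. These values stand out because they come from libraries outside the main comparisons, and they were not tested. Groups of 3 libraries were not searched for single outlying libraries.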

How the results depend on the processing

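For letter-named libraries, DESeq2, the replicate block, the unfiltered fit and the fit of all 8 groups kept every call of Cxcr4 and Ccr1, as did leaving out a replicate, except that Ccr1 with LE against PE fell under 1.5-fold without replicates 1 or 2 and with SE against PE without replicate 1. Members called fell from 2 to 1 in the fit of all 8 groups for LE+IFNy and SE+IFNy against IFNy. In SE against PBS they rose from 0 to 1 with no filter on low counts, the replicate block and the 8-group fit. Leaving out a replicate gave 1 to 2 members called for LE+IFNy and SE+IFNy against IFNy (1 without replicate 1), 1 to 2 for LE+IFNy against PE+IFNy (1 without replicate 1 or 2, 3 with all replicates) and 1 to 2 for SE+IFNy against PE+IFNy (1 without replicate 1, 3 with all). Members past 1.5-fold in the difference of IFN-γ responses with PE, given without a test, numbered 0 to 1 (0 without replicate 2, 1 with all). The receptors called for IFNy against PBS went from 8 to between 5 (without replicate 1) and 7, and for LE+IFNy against IFNy to 4 to 5, or 7 with no filter.

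Whether the replicate numbers pair the libraries is not settled by these values. Correlations of same-numbered deviations ran from -0.10 to 0.23, never all over 0.1 in a comparison, and in 3 of 13 comparisons of 2 groups did every library correlate best with its own number. The replicate block gave Cx3cr1 -0.71 in SE against PBS (edgeR adjusted p = 0.000976), and changed no other call of the members.

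Leaving out a replicate turned the sign of values that were not called. The ranges were -0.027 to 0.59 for Cx3cr1 and -0.054 to 0.20 for Gpr183 in PE+IFNy against IFNy, -0.51 to 0.065 for Cx3cr1 in LE+IFNy against SE+IFNy, -0.017 to 0.17 for Ccr2 in SE+IFNy against PE+IFNy and -0.77 to 0.049 for Ccr2 in PE against PBS.

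With both library series and series as a term, which includes the 12 libraries that go against their label, members called became 0 for SE+IFNy against IFNy, 1 for LE+IFNy against PE+IFNy, and 2 for LE against PBS. Members past 1.5-fold in the difference of IFN-γ responses became 1 with SE and 4 with PE, and receptors called for IFNy against PBS became 0. The signs that turned were, against IFNy, LE+IFNy for Cx3cr1 (-1.91) and Gpr183 (-0.98), SE+IFNy for Gpr183 (-0.022) and PE+IFNy for Cx3cr1 (-2.68), Gpr183 (-1.26), Ccr1 (0.24) and Ccr2 (0.74). Between peptides with IFN-γ they were LE against SE for Gpr183 (-0.95) and Ccr1 (0.43) and SE against PE for Ccr1 (-0.23) and Ccr2 (-0.82). Against PBS they were LE for Ccr2 (0.71) and Cxcr4 (1.22), SE for Gpr183 (0.15) and PE for Cx3cr1 (-0.41), Gpr183 (-0.29), Ccr2 (0.91) and Cxcr4 (0.84). In the difference of IFN-γ responses with LE they were Cx3cr1 (-2.88) and Cxcr4 (-0.22).

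Counts of all genes called moved by over 1.5 times in the following cases. PE+IFNy against IFNy called 80 genes, 31 with DESeq2, 152 with no filter, 24 in the 8-group fit and 4 without replicate 1, 9 without replicate 3 and 250 without replicate 2. LE against PBS called 3, 57 with no filter, 7 with the block or in the 8-group fit and 0 to 1 without a replicate, SE against PBS 239, or 3, 419 and 17 without replicates 1, 2 and 3, and PE against PBS 389, or 0, 1021 and 60. The difference of IFN-γ responses with SE called 1043 genes and 551 without replicate 1, and that with PE called 0, 61 with no filter and 1 without replicate 2. With both series the differences of IFN-γ responses called 1 in place of 2471 with LE, 0 in place of 1043 with SE and 1 in place of 0 with PE. IFN-γ against PBS then called 40 in place of 2213, and peptide with IFN-γ against the peptide 664 in place of 4539 for LE, 4 in place of 3410 for SE and 882 in place of 2715 for PE. Against IFNy, LE+IFNy called 1048 in place of 1972, SE+IFNy 7 in place of 940 and PE+IFNy 1 in place of 80. Against PE+IFNy, LE+IFNy called 374 in place of 2752 and SE+IFNy 439 in place of 966. Against PBS, LE called 1123 in place of 3, SE 0 in place of 239 and PE 932 in place of 389. The cause of these changes was not tested. Leaving out a replicate left fewer libraries, and the fit of both series included the libraries that go against their label. At 9 to 35 counts per library with IFN-γ, depth limits what can be said of Cx3cr1.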

Other observations

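In the deposited table the columns follow each other in 8 runs of 3 letter-named libraries, each followed by 3 HLA-named libraries, and in 0 of the 8 runs did both carry the same labelled treatment. Column order was not used to assign any library to a group.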
